A study of Bos taurus with 6 samples.

Results

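The aminoacyl-tRNA synthetases, the enzymes that attach amino acids to their tRNAs, were examined in bovine blastocysts. Every row of the expression table whose gene name follows the naming pattern of this family was taken, which gave 38 of 36075 genes. Of these, 20 encode cytosolic enzymes, 16 encode mitochondrial enzymes, and 2, AIMP1 and AIMP2, encode scaffold proteins that hold several cytosolic enzymes together. NARS2, the mitochondrial asparagine enzyme, was not analysed here. The control group consisted of blastocysts from oocytes matured in vitro for 22 h without melatonin (MT), and the MT-treated group of blastocysts from oocytes matured with 1e-07 mol/L MT. In both groups, oocytes came from slaughterhouse ovaries and were fertilised and cultured in vitro, and MT was given only during oocyte maturation. Each group had 3 libraries, each from a pool of 3 whole blastocysts, so that a value averages over embryos and over the cell types of the embryo. In such bulk samples, fewer cells of a type and less RNA per cell cannot be told apart.

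Apart from EPRS1, which joins the glutamate and proline activities, each synthetase recognises 1 amino acid and the tRNAs that carry it. The cytosol and the mitochondrion mostly use separate enzymes, both encoded in the nucleus, and only the glycine enzyme GARS1 and the lysine enzyme KARS1 serve both compartments from a single gene. In mammals, a group of the cytosolic enzymes sits in a multisynthetase complex built on AIMP1, AIMP2 and EEF1E1, and the remaining cytosolic enzymes work outside it. Many cytosolic synthetase genes are known targets of ATF4, the transcription factor of the amino acid response. The early embryo depends on these enzymes once it starts to replace maternal proteins.

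The deposited values were TPM, a measure that corrects the reads of a gene for its length and for the total of its library, so that levels can be compared between genes. TPM keeps no read counts, so the number of reads behind a value is not known here. The paper lists the sequencing depth of each replicate in its supplement, which was not used. Values were tested as log2(TPM + 1) with limma across the 11953 genes that reached 1 TPM in 3 or more libraries, with Benjamini-Hochberg adjustment over all of them. A gene was called at an adjusted p-value under 0.05, and 95.7% of all tested genes were called, 61.6% as higher and 34.1% as lower in MT-treated blastocysts. Higher genes made up 64.4% of the calls with TPM as deposited and 51.1% after quantile normalization, which sets all libraries to 1 common distribution. Among the genes above 0 in all 6 libraries, tested on their own, higher genes made up 43.7% of the calls, with 2814 higher and 3626 lower. Between 8854 and 8953 genes were above 0 in control and between 14372 and 14408 in MT-treated libraries. Centring each library on the median of the 5988 genes at 1 TPM or more in all 6 libraries removed a shift of -0.48 on the log2 scale, and members whose direction depends on it are named below. Because nearly every tested gene was called, sizes and within-library proportions are given along with each call.

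The labelled tissue was checked with marker genes. The keratins KRT8 and KRT18 of the trophectoderm were at 6756 to 8828 TPM and 2726 to 3694 TPM across the 6 libraries. POU5F1 of the inner cell mass was at 188 to 194 TPM in all libraries. CDX2, which defines the trophectoderm, and NANOG, which defines the inner cell mass, stood at 0 in all control libraries and at 15.0 to 17.2 TPM and 8.23 to 8.93 TPM in MT-treated libraries. The 4 hypoblast markers summed to 0.20 to 0.44 TPM in control and to 53.5 to 57.5 TPM in MT-treated libraries, with GATA4 at 0 throughout. Of 8 cumulus and granulosa markers, FSHR (15.0 to 19.2 TPM) and HSD3B1 (105 to 140 TPM) were above 0.01 TPM, whereas HAS2, PTX3, TNFAIP6, INHA and FST were at 0 in all libraries. The 8 oocyte markers summed to 0 in every control library and to 1.03 to 1.44 TPM in MT-treated libraries. These marker differences run alongside every result that follows, and their part in it was not tested.

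Of the 38 genes, 33 reached the level required for testing, and all 33 were called, 21 as higher and 12 as lower in MT-treated blastocysts. In all 33, the libraries of the groups did not overlap, as they did for 96.1% of all tested genes. On the log2(TPM + 1) scale, 13 members (39.4%) were higher and 3 (9.09%) lower by 2-fold or more, beside 51.0% and 19.6% of all tested genes, or 70.6% in either direction. The 13 include 7 members near 0 in control, described below, which could only come out higher with TPM as deposited. After centring, 24 members were called higher and 6 lower, where 70.4% and 25.4% of all tested genes were, and after quantile normalization 19 were called higher and 10 lower, where 46.4% and 44.4% were. Replicates were close, with a median coefficient of variation of 1.83% in control over 24 members and 2.27% in MT-treated blastocysts over 31, taking those with a mean of at least 5 TPM.

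Among the 20 cytosolic enzymes, all of which were tested, MT-treated blastocysts had 12 higher and 8 lower. All tested genes had 61.6% higher and 34.1% lower, and the 12 include RARS1 and CARS1, described below. The summed level of the 20 genes was 1175, 1191 and 1187 TPM in control and 1216, 1199 and 1201 TPM in MT-treated libraries. The sums thus differed by 21.1 TPM, or by 56.3 TPM when every library was rescaled to the same total, while single enzymes moved by far more. RARS1 and CARS1, listed at or near 0 in control, made up 60.6 to 61.0 TPM of the MT-treated sums. The other 18 genes summed to 1175, 1191 and 1187 TPM in control and to 1155, 1138 and 1141 TPM in MT-treated libraries. Without RARS1 and CARS1 the sum was thus lower in MT-treated blastocysts with TPM as deposited. Listed totals over all genes were also lower in MT-treated libraries, at 912686 to 913707 TPM beside 936783 to 937698 TPM in control. No direction is therefore read from the sum of the 18 genes. Over the 18 cytosolic genes at 1 TPM or more in all 6 libraries, the median log2 fold change was 0.30, beside -0.27 over the 5988 genes at that level. After centring, 14 cytosolic enzymes were called higher and 6 lower.

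**Figure D1:**
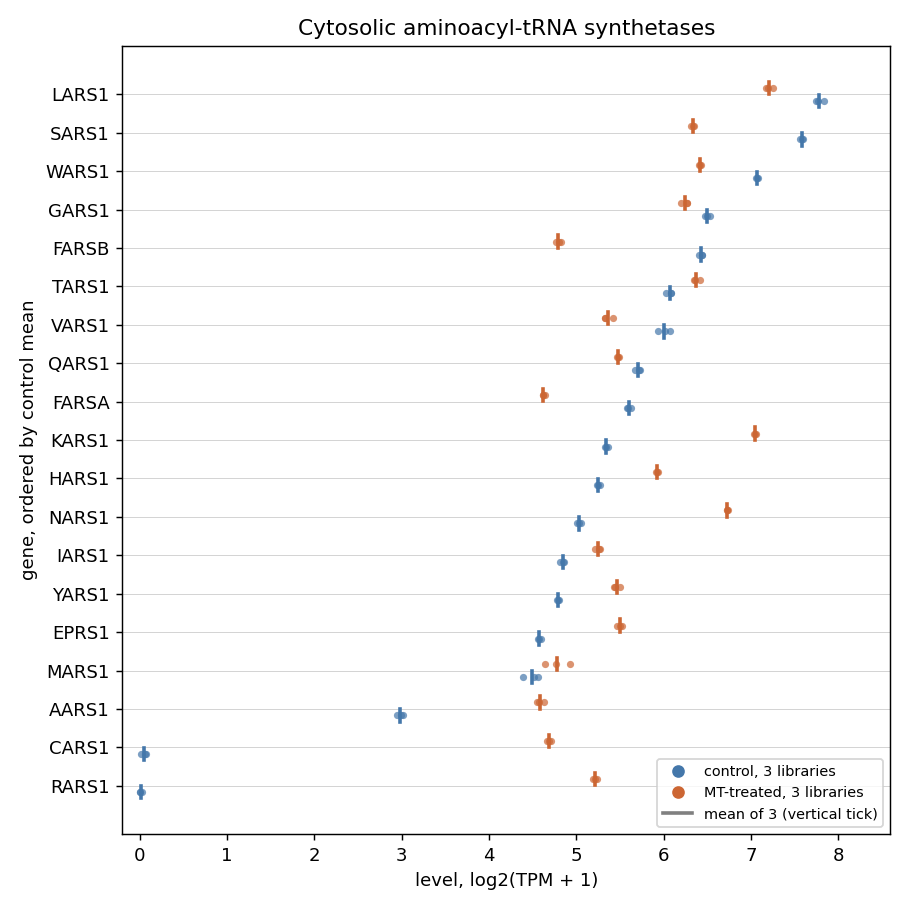
Level of cytosolic aminoacyl-tRNA synthetase genes, as log2(TPM + 1) on the horizontal axis, in the 3 control and the 3 MT-treated libraries (points), with vertical ticks at the group means and genes ordered by the control mean. RARS1 and CARS1 lie at or near 0 in control and at 36.1 and 24.8 TPM on average in MT-treated blastocysts, and LARS1 is the highest gene in both groups.

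The most distinct cytosolic values were those of the arginine and cysteine enzymes. RARS1, a member of the multisynthetase complex, had 0, 0.02 and 0 TPM in control and 36.2, 36.6 and 35.5 TPM in MT-treated libraries. CARS1 had 0.05, 0.01 and 0.04 TPM in control and 24.8, 24.4 and 25.1 TPM in MT-treated libraries. Every translating cell uses both enzymes, so these control values are given as listed, with no fold change or test, since both genes met the level for testing through the MT-treated libraries alone. Across all tested genes, 41.6% had a control mean under 0.5 TPM and an MT-treated mean of at least 0.5 TPM, and 7 of the 33 tested members (21.2%) did. With TPM as deposited these 7 could only come out higher, and all 7 are among the 21 higher members. The reverse was found in 4.95% of all tested genes and in 0 members.

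Of the other 18 cytosolic enzymes, 4 were higher by at least 2-fold, among them KARS1, NARS1 and AARS1. KARS1, the lysine enzyme of both compartments, had 39.1, 39.5 and 40.1 TPM in control and 130.1, 131 and 133 TPM in MT-treated libraries. The group means stood at a ratio of 3.31, and the log2 fold change was 1.70 (SE, standard error, 0.02, with adjusted p = 2.37e-09 by limma). NARS1, the asparagine enzyme, had 31.8, 32.3 and 31.2 TPM in control and 105, 105 and 106 TPM in MT-treated libraries, a ratio of 3.31. AARS1, the alanine enzyme, had 6.94, 7.07 and 6.69 TPM in control, the lowest cytosolic level apart from RARS1 and CARS1. In MT-treated libraries AARS1 had 22.5, 23.8 and 22.8 TPM, a ratio of 3.34. In each of these 3 genes the lowest MT-treated value was well above the highest control value, and the direction held after centring and after quantile normalization.

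Smaller rises were found for EPRS1, HARS1, YARS1, IARS1, TARS1 and MARS1. The largest of these was in EPRS1, which carries the glutamate and proline activities on 1 chain and rose from 22.9 ± 0.246 to 44.2 ± 0.903 TPM (SD, n = 3 each). HARS1, the histidine enzyme, and YARS1, the tyrosine enzyme, rose by ratios of 1.61 each, IARS1, the isoleucine enzyme, by 1.34 and TARS1, the threonine enzyme, by 1.24. The smallest rise was in MARS1, the methionine enzyme, with 19.97, 21.8 and 22.7 TPM in control and 29.4, 24.0 and 26.2 TPM in MT-treated libraries. Its groups were separated by less than the range within MT-treated libraries (log2 fold change 0.29, SE 0.08, adjusted p = 0.0152 by limma).

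FARSB and SARS1 were lower by at least 2-fold. FARSB, the beta subunit of the phenylalanine enzyme, fell from 85.9, 85.6 and 84.1 TPM to 27.4, 26.8 and 26.1 TPM, a ratio of 0.314 (log2 fold change -1.63, SE 0.03, adjusted p = 7.42e-09 by limma). FARSA, the alpha subunit of the same enzyme, fell from 47.1, 47.0 and 48.6 TPM to 23.5, 23.9 and 23.5 TPM, a ratio of 0.497 (log2 fold change -0.98, just short of 2-fold on that scale). Both subunits of this enzyme were thus lower in MT-treated blastocysts, but by unequal amounts, and the ratio of FARSA to FARSB within a library went from 0.548, 0.549 and 0.578 in control to 0.861, 0.890 and 0.901. SARS1, the serine enzyme, fell from 191, 188 and 193 TPM to 80.0, 78.8 and 80.4 TPM, a ratio of 0.418 (log2 fold change -1.25, SE 0.02, adjusted p = 5.78e-09 by limma). FARSA, FARSB and SARS1 were called lower under centring and quantile normalization as well.

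The other falls were smaller. LARS1, the leucine enzyme, went from 214, 227 and 217 TPM to 152, 145 and 144 TPM and was the most abundant member in both groups. WARS1, the tryptophan enzyme, fell by a ratio of 0.632 and VARS1, the valine enzyme, by 0.632, and the log2 fold changes of these 3 genes shrank to between -0.18 and -0.10 after centring, still called. GARS1, the glycine enzyme of both compartments, had 88.0, 91.3 and 89.3 TPM in control and 76.2, 72.3 and 75.8 TPM in MT-treated libraries, and QARS1, the glutamine enzyme, had 52.2, 50.1 and 51.7 TPM and 43.9, 43.1 and 43.5 TPM. The direction of GARS1 and QARS1 was reversed by centring, with log2 fold changes of 0.22 and 0.25 in place of -0.26 and -0.23, and by quantile normalization, with 0.01 and 0.08. Of the 2 enzymes shared by both compartments, KARS1 was therefore higher under each scaling, and GARS1 had no direction that held.

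**Figure D2:**
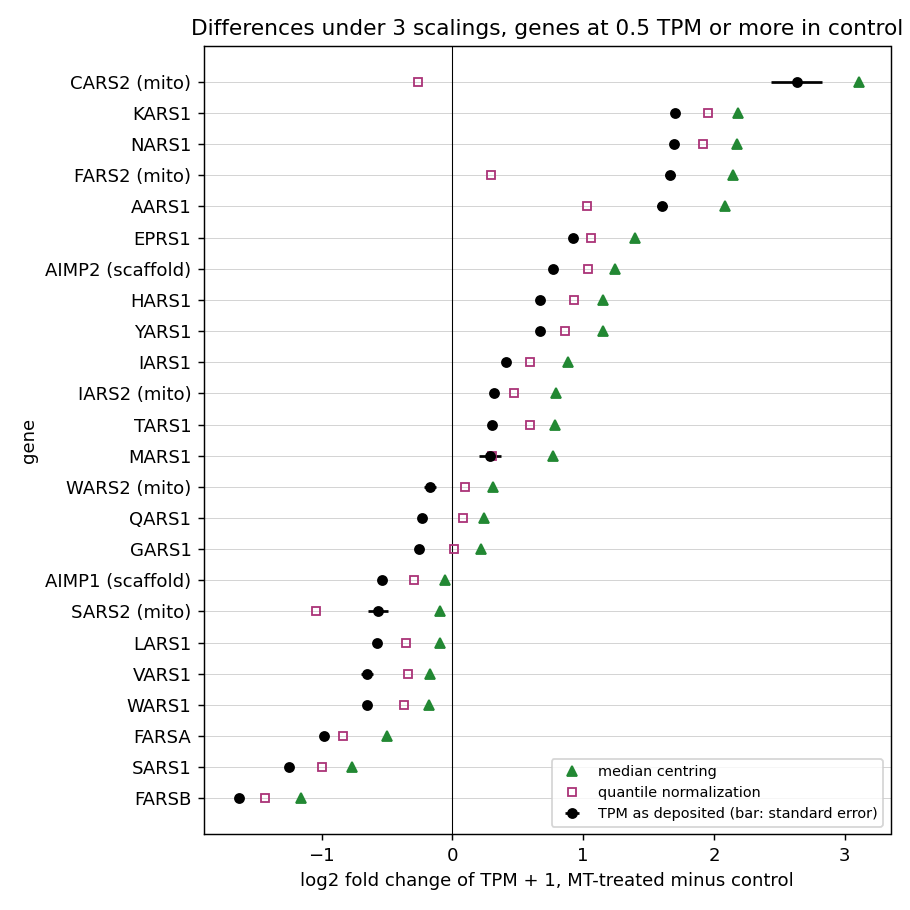
Log2 fold change of TPM + 1 (MT-treated minus control, horizontal axis) for members with a control mean of at least 0.5 TPM, with TPM as deposited (black circles, bar for the standard error), after median centring (green triangles) and after quantile normalization (open squares). WARS2, QARS1 and GARS1 cross 0 under both other scalings and CARS2, above 1 TPM in 1 control library only, under quantile normalization, whereas KARS1 at 1.70 and FARSB at -1.63 keep their sides.

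Shares of the summed cytosolic level do not change when a library is multiplied by a constant. LARS1, SARS1 and WARS1, the highest 3 in control, together made up 45.7%, 46.1% and 45.9% of the cytosolic sum in control and 25.9%, 25.8% and 25.7% in MT-treated libraries. SARS1 alone went from 16.1% ± 0.252 to 6.61% ± 0.0661 (SD, n = 3 each). In the other direction, KARS1 went from 3.34% ± 0.0311 to 10.9% ± 0.171 and NARS1 from 2.68% ± 0.0488 to 8.72% ± 0.0772 (SD, n = 3 each).

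**Figure D3:**
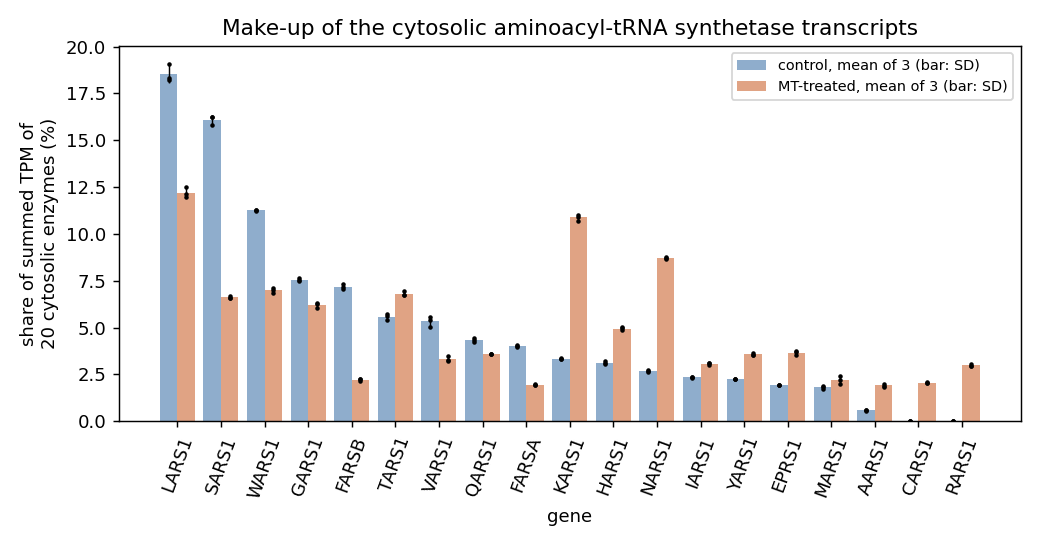
Share of single genes in the summed TPM of the 20 cytosolic enzymes (vertical axis, %), as group means with SD (bars) and single libraries (dots), ordered by the control share. The share of LARS1 goes from 18.5% to 12.2% and that of KARS1 from 3.34% to 10.9% between control and MT-treated blastocysts.

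The multisynthetase complex has 8 enzymes and 3 scaffold proteins. Of the 8 enzymes, 6 were higher in MT-treated blastocysts, EPRS1, IARS1, MARS1, RARS1 and KARS1 among them, and LARS1 and QARS1 were lower, beside 61.6% higher and 34.1% lower among all tested genes. Of the 12 cytosolic enzymes outside the complex, 6 were higher and 6 lower. After centring, which turned the direction of QARS1 and GARS1, 7 complex enzymes were higher and 1 lower, and 7 free enzymes were higher and 5 lower. RARS1 of the complex and CARS1 among the free enzymes are counted as higher in both settings although they met the level for testing through the MT-treated libraries alone, and the complex sum includes RARS1, so that nothing is read from these counts. The complex enzymes summed to 397, 415 and 406 TPM in control and to 546, 535 and 535 TPM in MT-treated libraries, and the free enzymes to 778, 776 and 781 TPM and to 670.2, 665 and 666 TPM. With TPM as deposited, the former sums lay above and the latter below those of every control library, and no test was made of the difference between the sets. The median log2 fold change was 0.66 for the complex enzymes and 0.02 for the free enzymes as deposited, and 1.14 and 0.50 after centring. No direction is therefore read from the sum of the free enzymes.

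The scaffold proteins did not move together. AIMP1, which also gives rise to a secreted cytokine, had 193, 193 and 199 TPM in control and 137, 134 and 132 TPM in MT-treated libraries. This fall (log2 fold change -0.54, SE 0.02, adjusted p = 1.04e-06 by limma) was -0.06 and no longer called after centring (adjusted p = 0.0553 by limma). AIMP2, around which the complex is organised, rose from 73.3, 75.9 and 74.3 TPM to 126, 127 and 129 TPM (log2 fold change 0.77, SE 0.02, adjusted p = 1.05e-07 by limma), and rose under centring and quantile normalization too. The ratio of AIMP2 to AIMP1 within a library was 0.379, 0.393 and 0.373 in control and 0.920, 0.945 and 0.980 in MT-treated libraries, so that the messages of both scaffolds were nearly equal in the latter. EEF1E1, the third scaffold, which lies outside the naming pattern, fell from 163, 176 and 169 TPM to 89.3, 91.6 and 101 TPM. Leaving out RARS1, the highest complex gene exceeded the lowest by 9.59 to 10.7 times in control and by 5.16 to 6.05 times in MT-treated libraries, with LARS1 the highest and MARS1 the lowest in each.

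The 16 mitochondrial enzymes were sparser, and 11 reached the level required for testing. Of these 11, MT-treated blastocysts had 8 higher and 3 lower, beside 61.6% and 34.1% of all tested genes. Of the 8, RARS2, TARS2, HARS2, AARS2 and VARS2 met the level for testing through the MT-treated libraries alone and could only come out higher with TPM as deposited, and CARS2 met it through the MT-treated libraries as well, so that nothing is read from this count. The summed level of all 16 was 147, 144 and 142 TPM in control and 210.3, 224 and 209.8 TPM in MT-treated libraries. The 6 genes with a control mean of at least 0.5 TPM summed to 144 ± 2.66 TPM in control and 135 ± 9.17 TPM in MT-treated blastocysts (SD, n = 3 each). The 10 others summed to 0.15 ± 0.02 TPM in control and 79.3 ± 1.63 TPM in MT-treated blastocysts (SD, n = 3 each), so the higher sum came from genes listed at or near 0 in control. Over the 5 mitochondrial genes at 1 TPM or more in all 6 libraries, 2 were higher and 3 lower, with a median log2 fold change of -0.17.

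**Figure D4:**
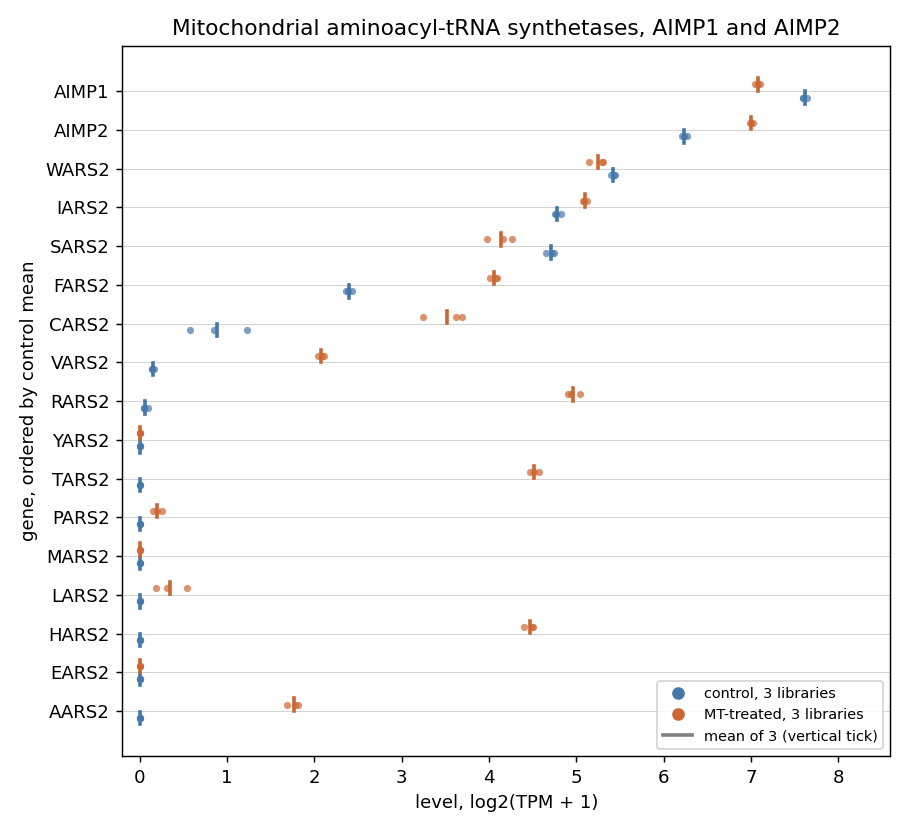
Level of mitochondrial aminoacyl-tRNA synthetase genes and of AIMP1 and AIMP2, as log2(TPM + 1) on the horizontal axis, in the 3 control and the 3 MT-treated libraries (points), with ticks at the group means. RARS2, TARS2 and HARS2 are at or near 0 in control and between 20.1 and 32.1 TPM in MT-treated libraries, and EARS2, MARS2 and YARS2 are at 0 throughout.

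Of the genes near 0 in control, 3 reached over 20 TPM in MT-treated libraries. RARS2, the arginine enzyme, had 0.03, 0.03 and 0.07 TPM in control and 29.6, 29.0 and 32.1 TPM in MT-treated libraries. TARS2, the threonine enzyme, was listed at 0 in each control library and had 21.8, 21.2 and 22.9 TPM in MT-treated libraries. HARS2, the histidine enzyme, was listed at 0 in each control library and had 21.7, 21.5 and 20.1 TPM in MT-treated libraries. HARS1 and HARS2 are direct neighbours among the protein-coding genes that RefSeq lists for assembly ARS-UCD2.0, to which all 38 members were matched by symbol, and HARS1 was at 36.6 to 37.7 TPM in the control libraries in which HARS2 was at 0. Both arginine enzymes, RARS1 and RARS2, were near 0 in control and at 29.0 TPM or more in every MT-treated library.

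AARS2, the alanine enzyme, was listed at 0 in control and had 2.22, 2.44 and 2.51 TPM in MT-treated libraries. VARS2, the valine enzyme, had 0.12, 0.10 and 0.10 TPM in control and 3.31, 3.12 and 3.24 TPM in MT-treated libraries. As both met the level for testing through the MT-treated libraries alone, no direction is read from their calls. LARS2, the leucine enzyme, and PARS2, the proline enzyme, were not tested. Each was listed at 0 in control, and they reached at most 0.45 and 0.19 TPM in MT-treated libraries. EARS2, MARS2 and YARS2, for glutamate, methionine and tyrosine, were listed at 0 in all 6 libraries.

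Among the mitochondrial enzymes above 0 in all libraries, FARS2, the phenylalanine enzyme, rose from 4.41, 4.14 and 4.24 TPM to 16.1, 15.1 and 15.9 TPM, a ratio of 3.68 (log2 fold change 1.66, SE 0.04, adjusted p = 4.94e-08 by limma). Quantile normalization lowered the log2 fold change of FARS2 to 0.30, still called. CARS2, the cysteine enzyme, had 1.35, 0.80 and 0.49 TPM in control and 11.3, 8.51 and 11.9 TPM in MT-treated libraries and reached 1 TPM in 1 control library only. It met the level for testing through the MT-treated libraries, and nothing is read from its call. IARS2, the isoleucine enzyme, rose from 26.5 ± 0.635 to 33.2 ± 0.556 TPM (SD, n = 3 each). WARS2, the tryptophan enzyme, went from 41.9 ± 0.753 to 37.1 ± 2.31 TPM (SD, n = 3 each), with a log2 fold change of -0.17 that turned to 0.31 after centring and 0.10 after quantile normalization. SARS2, the serine enzyme, had 25.8, 24.2 and 25.3 TPM in control and 14.8, 16.9 and 18.3 TPM in MT-treated libraries. It was called lower with TPM as deposited and after quantile normalization but not after centring (log2 fold change -0.09, adjusted p = 0.275 by limma).

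The cytosolic and mitochondrial enzymes for the same amino acid were set side by side as ratios within a library, where both partners had at least 1 TPM in all libraries. No test was made of these ratios, and 3 libraries against 3 cannot give an exact two-sided permutation p-value under 0.1. The phenylalanine pair shifted toward the mitochondrial enzyme, with FARS2 to FARSB at 0.0513, 0.0484 and 0.0504 in control and 0.587, 0.562 and 0.607 in MT-treated libraries. The serine and tryptophan pairs shifted less, from 0.132 to 0.209 for SARS2 to SARS1 and from 0.314 to 0.440 for WARS2 to WARS1 on average. The isoleucine pair stayed close to equal, at 0.931 to 1.004 in control and 0.883 to 0.903 in MT-treated libraries.

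**Figure D5:**
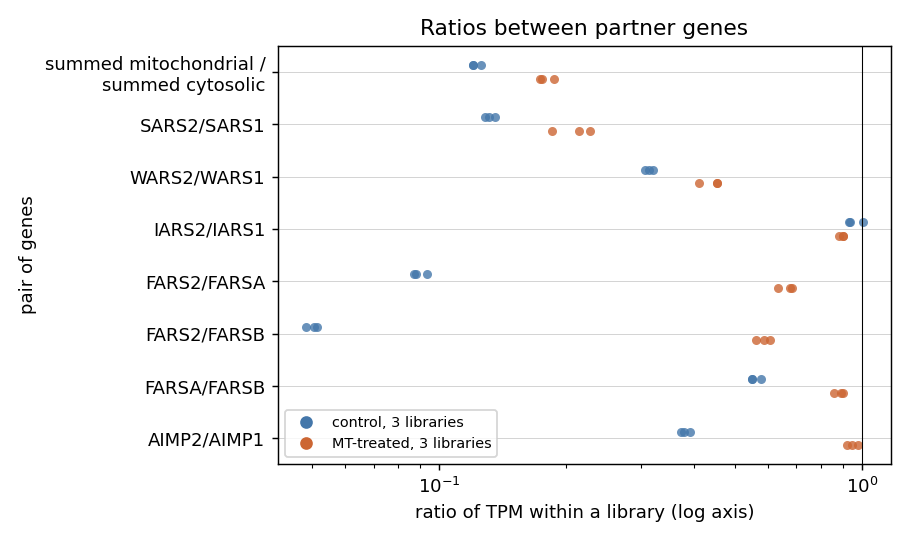
Ratio of the TPM of partner genes within each library (log axis) in the 3 control and the 3 MT-treated libraries, for mitochondrial over cytosolic enzymes of the same amino acid, for the subunits FARSA and FARSB and for AIMP2 and AIMP1. The summed mitochondrial over summed cytosolic level lies between 0.120 and 0.126 in control and between 0.173 and 0.186 in MT-treated libraries, and FARS2/FARSB between 0.0484 and 0.0513 and between 0.562 and 0.607. The mitochondrial sum includes 10 genes with a control mean under 0.5 TPM, which add 0.15 TPM in control and 79.3 TPM in MT-treated libraries on average. The 6 others sum to 144 and 135 TPM, so no shift is read from the summed ratio.

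Genes around the synthetases were described from lists chosen for their function. Mitochondria of mammals have no glutamine enzyme of their own and instead amidate a glutamate attached to the glutamine tRNA with the complex of QRSL1, GATB and GATC. QRSL1 fell from 16.6, 18.5 and 15.9 TPM to 6.33, 5.82 and 4.87 TPM, and GATC from 110.3, 114 and 107 TPM to 42.1, 42.0 and 41.5 TPM. GATB was listed at 0 in control and had 3.19, 2.94 and 3.33 TPM in MT-treated libraries. MTFMT, which formylates the initiator methionine tRNA, fell from 32.3, 31.5 and 30.2 TPM to 22.8, 21.95 and 21.8 TPM, with a log2 fold change of 0.0002 after centring.

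For tRNA maturation and export, 13 of 21 tested genes (61.9%) were higher and 6 (28.6%) lower, near the 61.6% and 34.1% of all tested genes. In this list 5 genes had a control mean under 0.5 TPM and an MT-treated mean of at least 0.5 TPM. These could only come out higher with TPM as deposited, so nothing is read from the count. The largest rise on the log2(TPM + 1) scale was in RPP30, a subunit of RNase P, at 0.07, 0 and 0.04 TPM in control and 50.6, 51.7 and 51.1 TPM in MT-treated libraries. RPP30 met the level for testing through the MT-treated libraries alone, and the size of its rise depends on the value added. The largest falls were in TSEN34 of the tRNA splicing endonuclease, from 33.0, 34.3 and 34.6 TPM to 17.9, 18.0 and 16.7 TPM, and in the tRNA ligase RTCB, from 65.0, 65.2 and 64.7 TPM to 41.0, 42.5 and 37.4 TPM.

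Charged tRNAs are delivered to the ribosome by elongation factors, and 4 of 6 such genes (66.7%) were higher and 2 (33.3%) lower, near the shares of all tested genes. EEF1A1, the cytosolic carrier, rose from 563, 556 and 562 TPM to 871, 871 and 864 TPM. TSFM, which recharges the mitochondrial carrier TUFM, had 0.04, 0.12 and 0.12 TPM in control and 85.9, 86.1 and 86.1 TPM in MT-treated libraries, while TUFM had 122, 119 and 125 TPM and 110.5, 113 and 117 TPM. TSFM met the level for testing through the MT-treated libraries alone and could only come out higher with TPM as deposited. The falls of TUFM and EEF1D (log2 fold changes of -0.11 and -0.12) turned to 0.37 and 0.36 after centring. In the list of tRNA editing and related genes, 4 of 6 tested rows were higher and 2 lower with TPM as deposited, the same shares as for the elongation factors. Centring gave 5 higher and 1 lower, and quantile normalization 2 higher and 3 lower. The 4 include 1 AARSD1 row, given below, that met the level for testing through the MT-treated libraries alone. PTRHD1, a peptidyl-tRNA hydrolase domain protein, rose from 12.7, 11.01 and 10.3 TPM to 17.9, 20.1 and 19.7 TPM. AARSD1, an alanyl-tRNA editing protein, is listed under 2 identifiers, 1 at 101, 104 and 105 TPM in control and 77.7, 80.4 and 80.1 TPM in MT-treated libraries and the other at 0 in control and 1.67 to 1.82 TPM, and its values are uncertain because reads may be split between them, with the fall of the former (log2 fold change -0.38) turning to 0.10 after centring.

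In the amino acid response list, 9 of 19 tested genes (47.4%) were higher and 8 (42.1%) lower, beside 61.6% and 34.1% of all tested genes. The 9 include 5 genes with a control mean under 0.5 TPM and an MT-treated mean of at least 0.5 TPM. These 5 could only come out higher with TPM as deposited, so nothing is read from the count. Centring gave 12 higher and 5 lower genes, and quantile normalization gave 9 of each. ATF4, named for its place in the pathway and not for its rank, had 298, 303 and 293 TPM in control and 334, 338 and 329 TPM in MT-treated libraries (log2 fold change 0.16, SE 0.02, adjusted p = 0.000173 by limma). On the log2(TPM + 1) scale, where a control level of 0 depends on the value added, the largest rises were in PHGDH of serine synthesis, listed at 0 in control and at 56.8, 61.7 and 59.0 TPM in MT-treated libraries, and in GCN1, a coactivator of the amino acid sensing kinase, listed at 0 in control and at 25.2, 25.2 and 26.6 TPM. Both met the level for testing through the MT-treated libraries alone. Named after its values were seen, SLC3A2, the heavy chain of amino acid transporters, rose from 10.5, 11.8 and 12.8 TPM to 139, 139 and 152 TPM and was above 0 in all libraries. The largest falls were in the stress factor DDIT3, from 155, 151 and 153 TPM to 37.0, 38.5 and 40.1 TPM, and in CEBPB, from 12.2, 12.2 and 13.5 TPM to 2.31, 2.95 and 2.77 TPM. As in the synthetases, the list held large rises and large falls side by side, with a median log2 fold change of 0.09 beside 1.12 over all tested genes. After quantile normalization these medians were -0.12 and 0.04, so that the gap was far smaller. The median over all tested genes includes the 41.6% with a control mean under 0.5 TPM and an MT-treated mean of at least 0.5 TPM. Over the 5988 genes at 1 TPM or more in all 6 libraries it was -0.27 with TPM as deposited. Nothing is therefore read from the gap.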

How the data were processed

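Expression was measured in 6 libraries, 3 per group, and each of the 6 columns was assigned through the sample titles. According to the paper, fastp filtered the reads, STAR mapped them on ARS-UCD1.3 and featureCounts counted them, whereas the submitters' processing notes name ARS-UCD1.2. The paper names Smart-seq2 and the labels a TruSeq kit, so the chemistry is uncertain. The authors deposited TPM rounded to 2 decimals, and how counts were turned into TPM is not given in the sources used here. Listed TPM summed to between 912686 and 937698 per library. Without counts, neither depth nor counting error can be derived from the TPM values.

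The scale of the test was log2(TPM + 1), and genes that reached 1 TPM in 3 or more libraries entered a linear model in limma 3.58.1 under R 4.3.3, moderated with a mean-variance trend. Benjamini-Hochberg adjustment of the p-values ran over all tested genes. The fit was tested on simulated data. The alternatives were median centring, quantile normalization, rescaling to equal totals, no filter or a floor of 5 TPM, a pseudocount of 0.1, genes with a symbol only, moderation without the trend, a replicate block and each library left out. A fit of genes never listed at 0 was chosen after seeing the data. Figures were drawn with matplotlib 3.10.9.

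The members and lists were chosen with earlier results of these data known. Some members and list genes enter the counts and sums but are not reported here. Members were described with values per library for those changed by at least 2-fold, at or near 0 in a group, shared by both compartments or scaffolds, and from other lists the 2 largest rises and falls were named. HARS1 and HARS2, MARS1, EPRS1, FARSA, LARS1, QARS1, IARS2, WARS2, SARS2, the pairs of partner genes, ATF4, QRSL1 and MTFMT were detailed in addition. The paper states 3 production runs per group, with the treatments side by side in each, and p-values measure only the spread between these libraries.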

Additional observations from a re-analysis of the deposited data

How the results depend on the processing

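Of the 33 tested members, all were called with TPM as deposited, and the same holds for a pseudocount of 0.1, rescaling to equal totals, rows with a symbol only and eBayes without the trend. After quantile normalization, 5 mitochondrial enzymes were called higher in place of 8, and the log2 fold change changed sign for AARS2 (-0.23), CARS2 (-0.26), VARS2 (-0.79), GARS1 (0.0114), QARS1 (0.0789) and WARS2 (0.10), of which AARS2, CARS2 and VARS2 met the level for testing through the MT-treated libraries so that no direction is read from them. After median centring, 0 mitochondrial enzymes were called lower in place of 3 (limma, also 0 at an unadjusted p under 0.05, with 2 of the 3 keeping a negative value), and GARS1 (0.22), QARS1 (0.25) and WARS2 (0.31) changed sign. With genes above 0 in all 6 libraries only, 6440 of 6925 genes were called in place of 11438 of 11953 (2814 higher and 3626 lower in place of 7367 and 4071), and 5 mitochondrial enzymes were called higher, since fewer genes could be tested. Leaving out 1 library ended no call among the members named here. The paper states that all treatments were run side by side in each production run, but no label ties a replicate number to a run. Deviations of same-numbered libraries from their group means correlated between -0.01 and 0.06 across genes. With the replicate number as a block, 7379 genes were higher and 4082 lower, and all 33 members were called in the same direction. Read counts were not available and sequencing depth was not used, so values listed at 0 are given no limit here.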

Other observations

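Aminoacyl-tRNA synthetases fall into 2 classes by the fold of the catalytic domain. Of the 9 cytosolic class I genes (CARS1, IARS1, LARS1, MARS1, QARS1, RARS1, VARS1, WARS1 and YARS1), 5 were called higher and 4 lower in MT-treated blastocysts (limma), or 55.6% and 44.4%. Of the 10 class II genes (AARS1, FARSA, FARSB, GARS1, HARS1, KARS1, NARS1, SARS1 and TARS1 among them), 6 were called higher and 4 lower, or 60% and 40%, and EPRS1 joins both classes. Of all tested genes 61.6% were higher and 34.1% lower. The class I count includes RARS1 and CARS1, which are at or near 0 in control and met the level for testing through the MT-treated libraries alone, so that nothing is read from it. The class I genes summed to 536 to 548 TPM in control and 476 to 491 TPM in MT-treated libraries, and the class II genes to 617 to 620.1 TPM and 674 to 682 TPM. These are sums of TPM as deposited. The median log2 fold change of the class I genes was 0.29 as deposited and 0.77 after centring, so no direction is read from their sum. The classes were set side by side after the values were seen, and the difference between them was not tested.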
